A study of Mus musculus with 12 samples.

Results

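The HIN-200 cluster of mouse chromosome 1 is a run of related interferon-inducible genes, and Ifi208 lies near its middle. Its members were taken by symbol: 10 symbols (Ifi208, Ifi203, Ifi204, Ifi209, Ifi211, Ifi213, Ifi214, Mndal, Mnda and Aim2) matched 9 of the 55536 features in the count table, since Mnda is a RefSeq synonym of Ifi211. Ifi208 was chosen by its counts in the same libraries, which were lower in Pdap1-deficient cultures of both kinds. Its genotype values are therefore given as a description with no test, and tests are given for the 8 neighbours. RNA was sequenced from spleen cultures of 3 control and 3 PDAP1 KO mice, each set up as an LPS-IL-4 culture (for switching to IgG1) and an LPS-BAFF-TGFb culture (for switching to IgG2b) and collected after 48 h, which gave 12 libraries in 4 groups of 3. Both genotypes carry 1 copy of the same Cre allele, which is active in B cells. Controls are Cd19Cre/+, and PDAP1 KO mice are Pdap1F/F besides, so that Pdap1 is lost only in cells that express the Cre. All mice are labelled C57BL/6. The floxed allele was made in C57BL/6N embryos, and its carriers were then bred with Cre mice kept on C57BL/6, and the substrain at chromosome 1 of each genotype is not given in the sources used here. Age is given only as a range over all mice of the study, and the labels name CH12, a B lymphoma line, beside what the study's methods describe as primary cells.

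HIN-200 proteins, also called PYHIN proteins, typically bind DNA through a HIN domain, which most of them carry behind a pyrin domain used for contacts with other proteins. AIM2 senses double-stranded DNA in the cytosol and builds an inflammasome through the adaptor Pycard and the protease Casp1. The mouse protein p204, the product of Ifi204, has been linked to DNA sensing through STING (Tmem173), and Ifi211 carries the name of the myeloid nuclear differentiation antigen (Mnda). Less is known of Ifi203, Ifi208, Ifi209, Ifi213, Ifi214 and Mndal, and which domains their proteins carry was not examined here. Many genes of the family are induced by type I interferon, and their copy number differs between mouse strains.

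On GRCm38 with GENCODE M21 gene models the members span 591.794 kb, chr1:173350879-173942672, and are all protein-coding. In chromosome order these are Aim2 (plus strand), Ifi214 and Ifi213 (minus), Ifi209 and Ifi208 (plus), and Ifi204, Mndal, Ifi211 and Ifi203 (minus). Ifi208 occupies chr1:173673675-173698395, with 6 merged exon blocks of 5258 bases in all. Ifi213, the nearest member in sequence, lies at chr1:173566283-173599274. The interval holds 18 annotated genes in all. Those that are no members are the HIN-200 genes Ifi206 and Ifi207, the pseudogenes Gm18752, Gm7871, Ifi203-ps, Gm7897 and Gm38050, and the miRNA genes Gm44481 and Gm44339, which lie on the opposite strand inside Ifi214 and Ifi209. The annotated span of Mndal contains Ifi211 and Ifi203, and 37 exonic bases are common to Mndal and Ifi203.

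The 150 bases before the RefSeq transcription start (build GRCm38.p6) are shown for the genes whose upstream region can be set beside that of Ifi208: its close copies Ifi213 and Ifi206, the nearby genes Ifi209 and Ifi214, and Ifi211 as a distant member. Capitals mark GAAA, any 2 bases and GAAA again, the core of an interferon-stimulated response element (ISRE), searched on both strands. RefSeq places these stretches at chr1:173673515-173673664 (plus strand) for Ifi208, chr1:173599273-173599422 (minus) for Ifi213, chr1:173491319-173491468 (minus) for Ifi206, chr1:173535958-173536107 (minus) for Ifi214, chr1:173630709-173630858 (plus) for Ifi209 and chr1:173913047-173913196 (minus) for Ifi211. By GENCODE that of Ifi211 lies in the span of Mndal, and the others lie outside the cluster's gene models but for 2 bases of Ifi213.
Ifi208: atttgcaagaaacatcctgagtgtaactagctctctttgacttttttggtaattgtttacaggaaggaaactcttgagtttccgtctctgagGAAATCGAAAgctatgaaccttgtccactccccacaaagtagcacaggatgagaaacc
Ifi213: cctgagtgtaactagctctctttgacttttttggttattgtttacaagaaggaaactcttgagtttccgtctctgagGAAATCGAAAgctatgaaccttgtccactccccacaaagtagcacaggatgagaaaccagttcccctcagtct
Ifi206: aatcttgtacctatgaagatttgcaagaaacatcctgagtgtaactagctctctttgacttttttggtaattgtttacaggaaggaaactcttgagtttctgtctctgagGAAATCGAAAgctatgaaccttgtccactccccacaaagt
Ifi214: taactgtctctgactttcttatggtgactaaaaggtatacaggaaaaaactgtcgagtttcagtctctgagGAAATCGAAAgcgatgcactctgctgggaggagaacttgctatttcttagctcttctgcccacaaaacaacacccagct
Ifi209: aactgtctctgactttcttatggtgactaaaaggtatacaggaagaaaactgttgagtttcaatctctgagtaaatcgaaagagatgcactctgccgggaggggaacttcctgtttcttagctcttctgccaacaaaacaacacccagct
Ifi211: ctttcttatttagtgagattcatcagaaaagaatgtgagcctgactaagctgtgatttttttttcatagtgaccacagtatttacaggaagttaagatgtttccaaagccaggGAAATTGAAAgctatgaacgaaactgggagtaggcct

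Of the members, 8 have a promoter window of 300 bases (250 before and 50 after the start) in the RefSeq table, and the ISRE core was found in 6 of these, against 1131 of 32851 windows over all genes (3.44%). Aim2 and Ifi209 held none. In Ifi208 the match begins 58 bases before the start and reads GAAATCGAAA. The window of Ifi208 matched that of Ifi213 at 282 of 285 aligned positions (98.9%) and that of Ifi206 at 279 of 282 (98.9%), while its identity was 59.9% with Ifi214, 59.0% with Ifi209 and 52.3% with Ifi211. The longer run GAAATCGAAAG, which contains the core and was picked after the sequences had been read, occurred in 6 windows of the 32851 (0.0183%), those of Ifi206, Ifi208, Ifi213, Ifi214, Mndal and Ifi203. Ifi208 thus has nearly the same letters before its start as Ifi213 and Ifi206, and its values can be set beside those of both.

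Parts of the transcripts are also alike, which bears on how reads are assigned. Of the 50-base stretches in the transcripts of Ifi208, 79.1% occur in no other gene's transcripts and 18.1% also occur in Ifi213. The unique share was 84.4% for Ifi213, 66.3% for Ifi209 (33.4% shared with Ifi214), 27.2% for Ifi211 (44.7% shared with Ifi205, another HIN-200 gene just outside the interval) and 99.3% for Aim2. By shared sequence, Ifi211 is thus the least certain of the 9.

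Values are given as CPM, a gene's count scaled to a common library total (TMM), and as log2 fold changes with their standard error (SE) from edgeR's quasi-likelihood test. A gene is called changed at a Benjamini-Hochberg adjusted p under 0.05 over all genes tested. The LPS-IL-4 libraries held 9386667 to 15869143 counts, and those of LPS-BAFF-TGFb 4579793 to 8303482, except for control mouse 1 in the latter, at 69500640. Pdap1 itself was at 91.2 to 97.6 CPM in control and 23.3 to 29.9 CPM in PDAP1 KO libraries with LPS-IL-4, and at 80.1 to 198 CPM and 22.9 to 26.4 CPM with LPS-BAFF-TGFb. The summed level of 7 B cell markers was 2405 to 3639 CPM in the 12 libraries. PDAP1 KO mouse 2 stood apart by its myeloid markers (10 of 10 matched, such as Lyz2, Csf1r and S100a8), which summed to 316 CPM with LPS-IL-4 and 548 CPM with LPS-BAFF-TGFb. The controls were at 5.21 to 13.6 CPM and 16.4 to 24.8 CPM, PDAP1 KO mouse 1 at 6.76 and 11.8 CPM and PDAP1 KO mouse 3 at 33.8 and 78.8 CPM. Fcgr1, Mpo and Ly6g were at 0 in the LPS-IL-4 controls and Ly6g in the LPS-BAFF-TGFb controls. With LPS-BAFF-TGFb, Mpo and Ly6g were also at 0 in every PDAP1 KO library, that of mouse 2 included. T cell markers (9 of 9 matched) summed to 32.3 CPM with LPS-IL-4 and 13.4 CPM with LPS-BAFF-TGFb in PDAP1 KO mouse 2, and to 17.5 to 29.8 and 3.89 to 8.75 CPM in controls. Cd3e, a chain of the T cell receptor complex, was at 2.61 and 1.85 CPM in that mouse and at most at 0.525 and 0.143 CPM in controls. Cd4 was at 1.27 and 1.44 CPM in that mouse and at most at 0.70 and 1.34 CPM in controls. The study's methods describe B cells isolated from spleen with anti-CD43 beads, which are meant to remove such cells. Since the libraries are bulk samples, more cells of a type and more RNA per cell cannot be told apart. The neighbours' genotype fold changes are given with and without PDAP1 KO mouse 2.

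Ifi208 was lower in every PDAP1 KO library than in any control library of the same stimulation. With LPS-IL-4 it was at 17.2, 12.5 and 20.3 CPM in control mice 1, 2 and 3, and at 1.86, 3.88 and 2.85 CPM in PDAP1 KO mice 1, 2 and 3. With LPS-BAFF-TGFb the controls were at 14.97, 14.93 and 19.2 CPM and the PDAP1 KO mice at 3.86, 4.53 and 3.51 CPM. The counts behind these values were 139 to 944 in control and 22 to 64 in PDAP1 KO libraries. The genotypes did not overlap in either stimulation, a pattern that 16.2% of genes tested with LPS-IL-4 and 9.1% of those tested with LPS-BAFF-TGFb had in the same direction, and for which Ifi208 was chosen.

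With LPS-IL-4 the PDAP1 KO mean was 17.2% of that of the controls (2.86 ± 1.01 against 16.6 ± 3.93 CPM, SD, n = 3 each) and with LPS-BAFF-TGFb 24.2% (3.97 ± 0.518 against 16.4 ± 2.45 CPM). That is 5.81-fold and 4.13-fold lower. The lowest control library exceeded the highest PDAP1 KO library 3.22-fold with LPS-IL-4 and 3.30-fold with LPS-BAFF-TGFb. The fitted log2 fold changes were -2.53 (SE 0.27) and -2.04 (SE 0.22). They were -2.84 (SE 0.26) and -2.16 (SE 0.24) without PDAP1 KO mouse 2, and -2.12 (SE 0.23) for LPS-BAFF-TGFb without the deep control library. PDAP1 KO mouse 2 had the highest Ifi208 level of the PDAP1 KO mice in both stimulations. The lower fitted values without it follow from that and are no test.

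Both sexes were used, and by Xist and the Y-linked Ddx3y the control mice 1 and 3 and PDAP1 KO mouse 1 were female and the others male. Among the males, Ifi208 was at 12.5 CPM in control mouse 2 and at 3.88 and 2.85 CPM in PDAP1 KO mice 2 and 3 with LPS-IL-4, and at 14.93 against 4.53 and 3.51 CPM with LPS-BAFF-TGFb. Among the females it was at 17.2 and 20.3 CPM against 1.86 CPM, and at 14.97 and 19.2 CPM against 3.86 CPM. Since the genotypes did not overlap, the lower level in PDAP1 KO mice within each sex follows from the values that chose Ifi208. The part of sex was not tested, and 1 to 2 mice a group cannot test it.

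**Figure D1:**
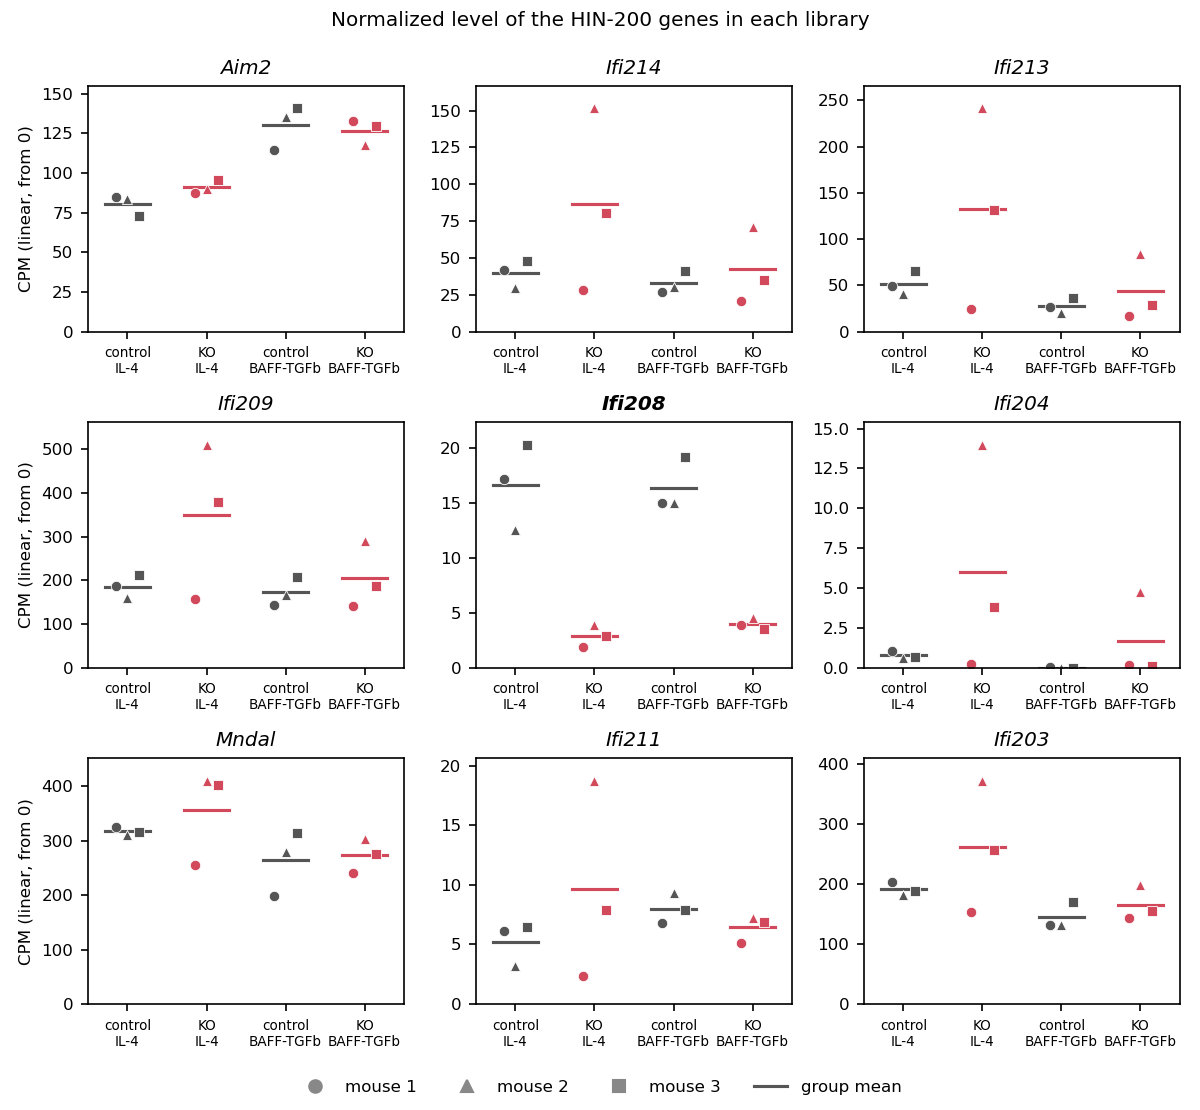
Level of each member in the 12 libraries, in CPM on a linear axis from 0, with 1 symbol per mouse and a bar at the group mean. Ifi208 was at 12.5 to 20.3 CPM in control and 1.86 to 4.53 CPM in PDAP1 KO libraries, while PDAP1 KO mouse 2 (triangles) gave the highest LPS-IL-4 value of 7 of the 8 other members.

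No neighbour of Ifi208 was lower in all PDAP1 KO libraries of a stimulation. With LPS-IL-4 all 8 had a fitted difference above 0, with a median log2 fold change of 0.89 against 0.02 over all genes. None passed edgeR's quasi-likelihood test, where 4.92% of the 15074 genes tested did, none had an unadjusted p under 0.05 (23.8% of all genes), and DESeq2 called none (4.28%). With LPS-BAFF-TGFb 7 neighbours were tested, of which 5 had a fitted difference above and 2 below 0, with a median of 0.21 against 0.01 over all genes. None passed edgeR's test (0.462% of 14079 genes did) or had an unadjusted p under 0.05 (10.6%), and in none were the genotypes apart (9.55% of all genes were higher and 9.1% lower without overlap). DESeq2, which also takes in genes of lower counts, called 1, Ifi204 (adjusted p = 0.0129 by DESeq2), where 0.587% of all genes were called. That call rests on the library of PDAP1 KO mouse 2, with 23 counts, beside 1 and 1 in PDAP1 KO mice 1 and 3 and 2, 0 and 0 in controls.

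Ifi213, whose upstream bases are nearly those of Ifi208, was at 49.2, 40.9 and 65.1 CPM in the LPS-IL-4 controls and at 23.8, 241 and 131 CPM in PDAP1 KO mice 1, 2 and 3. With LPS-BAFF-TGFb it was at 26.4, 20.03 and 36.5 CPM in controls and at 17.1, 84.0 and 29.0 CPM in PDAP1 KO mice. The genotypes overlapped in both stimulations, with PDAP1 KO mouse 2 the highest and PDAP1 KO mouse 1 the lowest of the 6 libraries in each. The log2 fold change was 1.33 (SE 0.88, adjusted p = 0.436 by edgeR's quasi-likelihood test) with LPS-IL-4 and 0.65 (SE 0.67, adjusted p = 0.738) with LPS-BAFF-TGFb. Without PDAP1 KO mouse 2 the values were 0.57 (SE 0.87) and -0.27 (SE 0.32), so the fitted direction with LPS-BAFF-TGFb turned. Ifi208 amounted to 30.5% to 34.9% of the CPM of Ifi213 in LPS-IL-4 controls and to 1.61% to 7.82% in PDAP1 KO libraries. In LPS-BAFF-TGFb cultures this proportion was 52.7% to 74.5% and 5.39% to 22.6%.

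Ifi206, the other close copy, is no member but lies between Aim2 and Ifi214. It was at 47.5, 41.3 and 58.4 CPM in LPS-IL-4 controls and at 29.6, 174 and 84.3 CPM in PDAP1 KO mice, and at 29.97, 29.7 and 46.7 CPM against 24.6, 81.3 and 34.5 CPM with LPS-BAFF-TGFb. Its log2 fold changes were 0.95 (SE 0.68, adjusted p = 0.472 by edgeR's quasi-likelihood test) and 0.41 (SE 0.51, adjusted p = 0.782), or 0.21 and -0.27 without PDAP1 KO mouse 2. Neither close copy had lower values in all PDAP1 KO mice.

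Ifi209, which ends upstream of Ifi208 on the same strand, was at 186, 159 and 211 CPM in LPS-IL-4 controls and at 157, 511 and 380 CPM in PDAP1 KO mice. With LPS-BAFF-TGFb it was at 144, 166 and 207 CPM against 140, 289 and 187 CPM. Its log2 fold change was 0.90 (SE 0.44, adjusted p = 0.299 by edgeR's quasi-likelihood test) with LPS-IL-4 and 0.26 (SE 0.28, adjusted p = 0.738) with LPS-BAFF-TGFb, or 0.53 and -0.09 without PDAP1 KO mouse 2, so the latter changed sign. Ifi214 was at 41.7, 29.3 and 47.7 CPM in LPS-IL-4 controls and at 28.3, 152 and 80.7 CPM in PDAP1 KO mice, and at 26.6, 30.2 and 41.3 CPM against 20.6, 71.0 and 34.9 CPM with LPS-BAFF-TGFb. Its log2 fold changes were 1.12 (SE 0.67, adjusted p = 0.390 by edgeR's quasi-likelihood test) and 0.37 (SE 0.48, adjusted p = 0.789), or 0.46 and -0.24 without PDAP1 KO mouse 2. For both genes the PDAP1 KO libraries lay on either side of the controls with LPS-IL-4.

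On the other side of Ifi208, Ifi204 had few counts outside PDAP1 KO mouse 2. Its LPS-IL-4 counts were 13, 7 and 8 in controls and 3, 231 and 36 in PDAP1 KO mice 1, 2 and 3, and its LPS-BAFF-TGFb counts were 2, 0 and 0 against 1, 23 and 1. The log2 fold change with LPS-IL-4 was 2.89 (SE 1.39, adjusted p = 0.294 by edgeR's quasi-likelihood test) and 1.22 (SE 1.07) without PDAP1 KO mouse 2. With LPS-BAFF-TGFb it did not pass the filter on low counts, and only the library of PDAP1 KO mouse 2 exceeded 3 counts, so no fold is given. Ifi207, between Ifi208 and Ifi204, had 38, 13 and 40 counts in LPS-IL-4 controls and 12, 278 and 51 in PDAP1 KO mice, and at most 15 in any LPS-BAFF-TGFb library. Ifi204 and Ifi207 had their highest CPM in PDAP1 KO mouse 2 in both stimulations.

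Mndal and Ifi203, at the end of the cluster farthest downstream of Ifi208, differed less between mice than Ifi213 or Ifi204. Mndal was at 325, 310 and 316 CPM in LPS-IL-4 controls and at 255, 410 and 402 CPM in PDAP1 KO mice, and Ifi203 at 203, 182 and 188 CPM against 153, 372 and 257 CPM. With LPS-BAFF-TGFb Mndal was at 198, 280 and 314 CPM against 241, 303 and 276 CPM, and Ifi203 at 132, 132 and 169 CPM against 143, 199 and 155 CPM. The log2 fold changes of Mndal were 0.16 (SE 0.16) and 0.06 (SE 0.18), and those of Ifi203 0.43 (SE 0.29) and 0.21 (SE 0.16). Without PDAP1 KO mouse 2 they were 0.06 and -0.05 for Mndal and 0.10 and 0.03 for Ifi203. With all mice, the adjusted p of these 4 values by edgeR's quasi-likelihood test lay between 0.412 and 0.921. Ifi211 was at 6.08, 3.14 and 6.47 CPM in LPS-IL-4 controls and at 2.33, 18.7 and 7.92 CPM in PDAP1 KO mice, and at 6.75, 9.35 and 7.90 CPM against 5.15, 7.20 and 6.90 CPM with LPS-BAFF-TGFb. Its log2 fold change of 0.88 (SE 0.78, adjusted p = 0.556 by edgeR's quasi-likelihood test) with LPS-IL-4 became -0.08 (SE 0.63) without PDAP1 KO mouse 2, and it was -0.30 (SE 0.24, adjusted p = 0.639) with LPS-BAFF-TGFb, or -0.40 without that mouse.

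Aim2, the inflammasome sensor at the other end of the cluster, varied little between mice. With LPS-IL-4 it was at 85.0, 83.7 and 73.2 CPM in controls and at 87.7, 89.9 and 95.3 CPM in PDAP1 KO mice, so the 3 PDAP1 KO libraries lay above the controls. Aim2 was the only neighbour without overlap between genotypes (1 of 8), where 15.5% of the genes tested were higher without overlap. The log2 fold change was 0.16 (SE 0.10, adjusted p = 0.362 by edgeR's quasi-likelihood test). With LPS-BAFF-TGFb it was at 114, 135 and 141 CPM against 133, 118 and 129 CPM, and the genotypes overlapped. There the log2 fold change was -0.03 (SE 0.12, adjusted p = 0.943 by edgeR's quasi-likelihood test). Without PDAP1 KO mouse 2 the values were 0.19 and -0.00465.

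**Figure D2:**
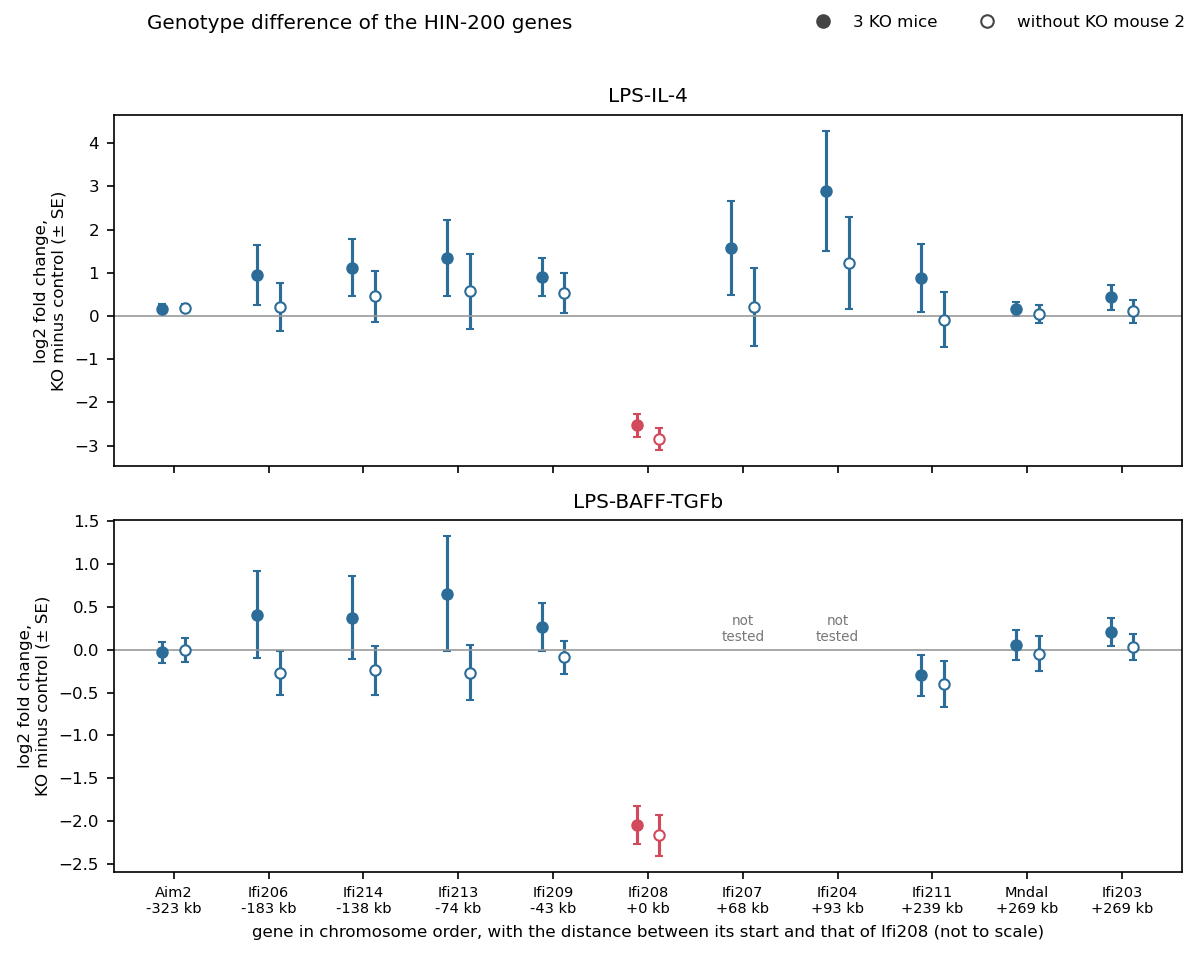
Log2 fold change between genotypes (PDAP1 KO minus control, ± SE) of the 9 members and of Ifi206 and Ifi207 in chromosome order, with the distance from the start of Ifi208 in kb; filled symbols use 3 PDAP1 KO mice and open symbols leave out mouse 2. Ifi208 lay at -2.53 and -2.04, while the tested neighbours ranged from 0.16 to 2.89 with LPS-IL-4 and from -0.30 to 0.65 with LPS-BAFF-TGFb.

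The PDAP1 KO mice of the LPS-IL-4 cultures stood in the same order across most of the cluster. There 7 of the 8 neighbours (all but Aim2) were highest of the 6 libraries in PDAP1 KO mouse 2, next highest in PDAP1 KO mouse 3 and lowest of the 6 in PDAP1 KO mouse 1. With LPS-BAFF-TGFb PDAP1 KO mouse 2 was the highest of the PDAP1 KO mice in 7 of 8, and the highest of the 6 in 5 of 8. The mean log2 level of the 8 neighbours, relative to the control mean of the same stimulation, was -0.58, 1.62 and 0.90 in PDAP1 KO mice 1, 2 and 3 with LPS-IL-4 and -0.15, 1.13 and 0.14 with LPS-BAFF-TGFb. Controls lay between -0.23 and 0.20. These means take in Ifi204, which with LPS-BAFF-TGFb was at 1.01, 5.03 and 0.78 in PDAP1 KO mice 1, 2 and 3. Those values rest on 1, 23 and 1 counts and raise the mean of mouse 2 most. With LPS-IL-4 Ifi208 had the order of 7 neighbours among PDAP1 KO mice (mouse 2 above mouse 3 above mouse 1), and among controls (mouse 3 above mouse 1 above mouse 2) that of 4 of the 8 neighbours. With LPS-BAFF-TGFb its order among PDAP1 KO mice was 2, 1 and 3, and its control order was again 3, 1 and 2, which 1 of the 8 neighbours shared. Among PDAP1 KO mice with LPS-IL-4, most of the cluster thus stood in 1 order. How many of all genes had that order was not counted. For Ifi208 it rests on 24, 64 and 27 counts in mice 1, 2 and 3, so the place of mouse 3 above mouse 1 is uncertain.

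Relative to the rest of the cluster, Ifi208 differed less among the PDAP1 KO mice of the LPS-IL-4 cultures than its own level did. It amounted to 1.91%, 1.54% and 2.23% of the summed CPM of the other 8 members in control mice 1, 2 and 3, and to 0.263%, 0.214% and 0.210% in PDAP1 KO mice. With LPS-BAFF-TGFb it amounted to 2.31%, 1.93% and 2.09% in controls and to 0.552%, 0.421% and 0.429% in PDAP1 KO mice. The highest PDAP1 KO share was that of mouse 1 in both stimulations, in which the other members summed to the least, 708 and 700.1 CPM. This proportion follows from the values that chose Ifi208 and carries no test.

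**Figure D3:**
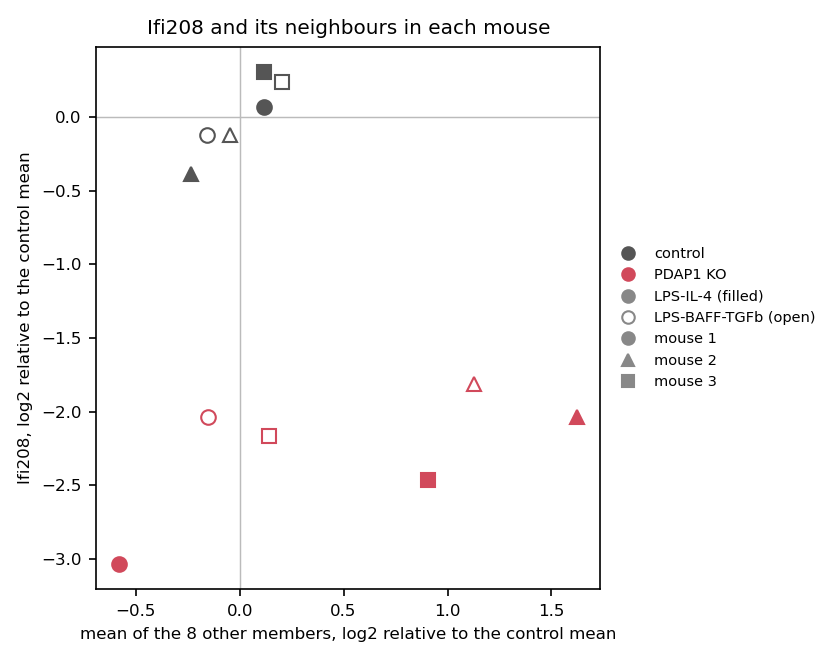
Ifi208 (vertical axis) against the mean of the 8 other members (horizontal axis) in each library, both as log2 relative to the control mean of the same stimulation; filled symbols are LPS-IL-4, open symbols LPS-BAFF-TGFb, and symbol shapes are mice. Controls lie between -0.23 and 0.20 on the horizontal axis, and the PDAP1 KO libraries spread from -0.58 to 1.62 on it while lying between -3.04 and -1.81 for Ifi208. The mean takes in Ifi204, which with LPS-BAFF-TGFb exceeded 3 counts only in PDAP1 KO mouse 2.

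Which mice carry the neighbours' difference was seen by leaving out 1 mouse at a time. Without PDAP1 KO mouse 1, 1759 genes passed edgeR's quasi-likelihood test with LPS-IL-4, against 741 of 15074 (4.92%) with all mice. How many genes were tested without that mouse is not given here, so 4.92% is not the share for this fit. Of the 8 neighbours, 5 passed in it. By edgeR's quasi-likelihood test these were Ifi209 (log2 fold change 1.24, adjusted p = 0.00369), Ifi204 (3.45, 0.0119), Ifi213 (1.82, 0.0172), Ifi203 (0.69, 0.0223) and Ifi214 (1.53, 0.0323), all higher in PDAP1 KO mice 2 and 3. Without PDAP1 KO mouse 2, none passed and the median over the 8 was 0.32. With LPS-BAFF-TGFb no neighbour passed whichever library was left out. Myeloid markers moved with these values: they summed to 33.8 to 316 CPM in PDAP1 KO mice 2 and 3 and to 6.76 CPM in mouse 1 with LPS-IL-4, and their part in the neighbours' values was not tested. By Xist and Ddx3y, mouse 1 was also the only female PDAP1 KO mouse. Without it, males alone were set against controls of both sexes, and the part of sex was not tested.

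Genes induced by type I interferon had the neighbours' order of mice. Of a list of 40 such genes, 35 had a fitted genotype difference above 0 with LPS-IL-4, none passed edgeR's quasi-likelihood test, 2 had an unadjusted p under 0.05 and DESeq2 called 1 (4.92%, 23.8% and 4.28% of all genes). Their median log2 fold change was 0.55 with all mice and 0.03 without PDAP1 KO mouse 2. With LPS-BAFF-TGFb 38 were tested, none passed edgeR's test (0.462% of all genes) or had an unadjusted p under 0.05 (10.6%), and DESeq2 called none (0.587%). The median there was 0.19 with all mice and -0.18 without PDAP1 KO mouse 2. By mouse the list's mean log2 level relative to controls was -0.66, 1.34 and 0.57 in PDAP1 KO mice 1, 2 and 3 with LPS-IL-4 and -0.55, 1.01 and 0.01 with LPS-BAFF-TGFb. PDAP1 KO mouse 2 was thus highest and mouse 1 lowest, as for most neighbours with LPS-IL-4.

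Interferon receptors and regulatory factors showed 1 call among 15 genes with LPS-IL-4 (4.92% of all genes were called), and 6 of the 15 had an unadjusted p under 0.05 (23.8% of all genes). Ifnar1, a chain of the type I interferon receptor, was at 77.7 ± 4.08 CPM in controls and 105 ± 6.38 CPM in PDAP1 KO mice (SD, n = 3 each), a log2 fold change of 0.42 (SE 0.10, adjusted p = 0.0382 by edgeR's quasi-likelihood test). None was called with LPS-BAFF-TGFb, where 1 had an unadjusted p under 0.05 and DESeq2 called none. Of 18 symbols for cytosolic DNA sensing and the inflammasome, 17 were matched and 12 tested with LPS-IL-4, of which 2 were called (4.92% of all genes) and 4 had an unadjusted p under 0.05 (23.8%). Casp1, the protease of the AIM2 inflammasome, rose from 55.9 ± 4.02 to 85.3 ± 16.8 CPM (log2 fold change 0.60, SE 0.14, adjusted p = 0.0434 by edgeR's quasi-likelihood test). Tmem173, which encodes STING, fell from 143 ± 6.59 to 103 ± 13.8 CPM (log2 fold change -0.49, SE 0.12, adjusted p = 0.0457 by edgeR's quasi-likelihood test). Without PDAP1 KO mouse 2 the values were 0.39 for Ifnar1, 0.73 for Casp1 and -0.38 for Tmem173, and each was still called. All 3 calls were lost without any 1 control mouse or without PDAP1 KO mouse 3 (adjusted p = 0.0920 to 0.210 by edgeR's quasi-likelihood test). None of these 12 genes was called with LPS-BAFF-TGFb, where 3 had an unadjusted p under 0.05 and DESeq2 called none.

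Genes around Ifi208 on chromosome 1 were counted by distance. Within 0.5 Mb of its start, 12 other genes were tested in LPS-IL-4 cultures and 9 in LPS-BAFF-TGFb cultures, most of them cluster genes. None was called by edgeR's quasi-likelihood test (4.92% and 0.462% of all genes were). With LPS-IL-4, 1 of the 12 had an unadjusted p under 0.05 (23.8% of all genes) and DESeq2 called 1 (4.28%), both times Gm44481, the miRNA gene on the opposite strand inside Ifi214. With LPS-BAFF-TGFb none of the 9 had an unadjusted p under 0.05 (10.6% of all genes). DESeq2 called 1 there (0.587%), Ifi204, which is not among the 9 and exceeded 3 counts only in PDAP1 KO mouse 2. Within 2 Mb 1 of 40 genes was called with LPS-IL-4 (2.5%, beside 4.92% of all genes) and 1 of 36 with LPS-BAFF-TGFb (2.78%, beside 0.462%). In both cases this was Slamf9, higher in PDAP1 KO mice by a log2 fold change of 2.58 (SE 0.46, adjusted p = 0.0161 by edgeR's quasi-likelihood test) and 2.19 (SE 0.34, adjusted p = 0.0278). Slamf9 encodes a receptor of the SLAM family, and without PDAP1 KO mouse 2 its values were 2.70 (adjusted p = 0.00370 by edgeR's quasi-likelihood test) and 2.37 (adjusted p = 0.0560). Its call was also lost without any 1 control mouse or PDAP1 KO mouse 3 with LPS-IL-4, and without control mouse 3 or PDAP1 KO mouse 1 or 3 with LPS-BAFF-TGFb (adjusted p = 0.0651 to 0.216 by edgeR's quasi-likelihood test). Within 10 Mb 10 of 178 genes were called with LPS-IL-4 (5.62%, beside 4.92% of all genes) and 1 of 165 with LPS-BAFF-TGFb (0.606%, beside 0.462%). Within 10 Mb the share of called genes was thus near that over all genes.

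**Figure D4:**
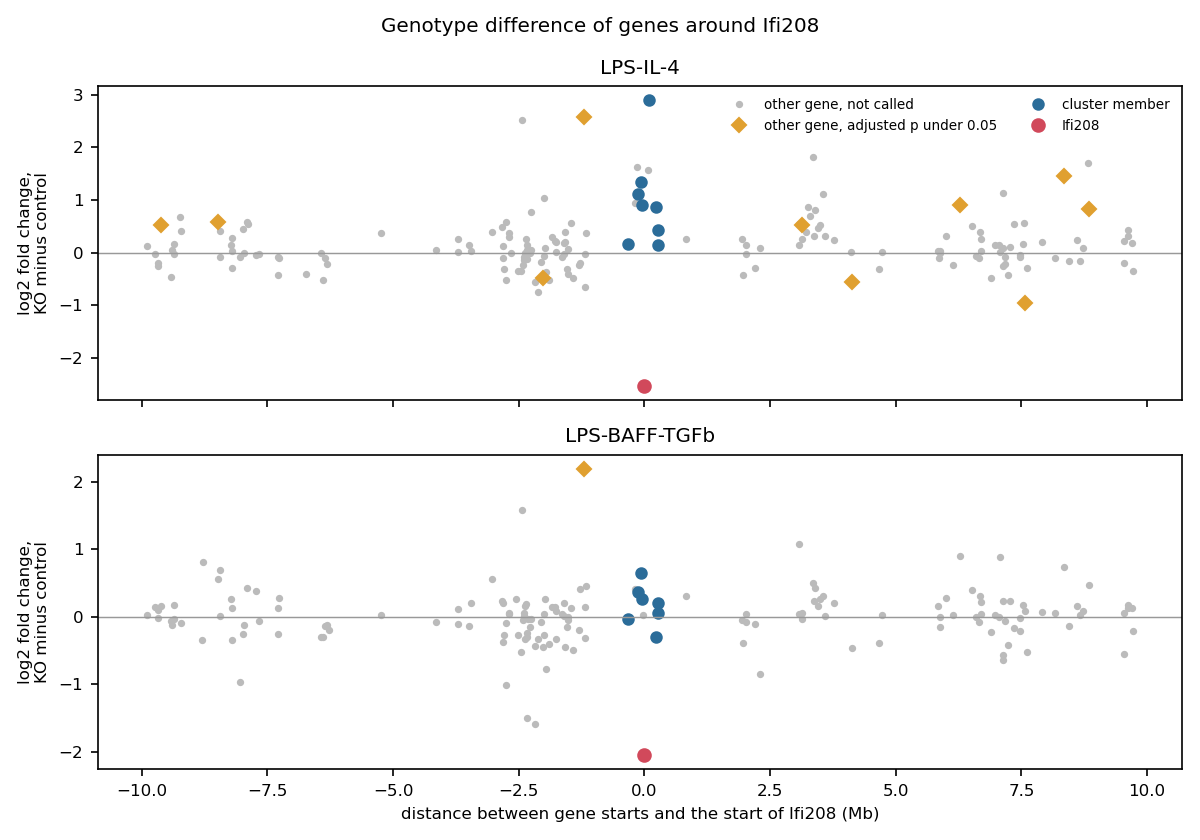
Log2 fold change between genotypes (PDAP1 KO minus control) of the genes tested within 10 Mb of Ifi208, by the distance of their starts in Mb, with members in blue, Ifi208 in red and other called genes as diamonds. Ifi208 lies at -2.53 and -2.04, below the other members in both stimulations, and the called gene nearest to it is Slamf9 at 2.58 and 2.19.

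Directly downstream of Ifi208, the pseudogene Gm18752 on the same strand had 6, 5 and 9 counts in LPS-IL-4 controls and 0, 3 and 2 in PDAP1 KO mice. With LPS-BAFF-TGFb it had 20, 1 and 1 against 0, 1 and 0 counts, where the 20 come from the deep library. These counts are low and are given with no fold. Ifi202b, a HIN-200 gene next to Ifi203 that is expressed in some other strains but not in C57BL/6, had at most 1 count in any library. Nnt, in which C57BL/6J carries a deletion and C57BL/6N does not, was at 1.84 to 2.604 CPM in LPS-IL-4 controls and 1.90 to 2.73 CPM in PDAP1 KO mice, and at 1.84 to 3.16 CPM against 1.29 to 2.22 CPM with LPS-BAFF-TGFb. The genotypes overlapped for Nnt in both stimulations. Nnt lies outside the interval, so its level does not show which sequence the cluster carries. Counts per gene hold no alleles, so whether the 2 genotypes carry the same sequence at the cluster was not tested.

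No difference between stimulations was detected for Ifi208. In controls it was at 16.6 ± 3.93 CPM with LPS-IL-4 and 16.4 ± 2.45 CPM with LPS-BAFF-TGFb, a log2 fold change (LPS-BAFF-TGFb minus LPS-IL-4) of -0.03 (SE 0.20, adjusted p = 0.943 by edgeR's quasi-likelihood test). In PDAP1 KO mice it was at 2.86 ± 1.01 and 3.97 ± 0.518 CPM, a log2 fold change of 0.45 (SE 0.33, adjusted p = 0.479 by edgeR's quasi-likelihood test), or 0.50 (adjusted p = 0.242) with the mouse as a block. By mouse it went from 1.86 to 3.86 CPM, from 3.88 to 4.53 CPM and from 2.85 to 3.51 CPM, higher with LPS-BAFF-TGFb in 3 of 3 PDAP1 KO mice.

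In controls 3 of the 7 neighbours tested passed edgeR's quasi-likelihood test between stimulations (1 higher and 2 lower with LPS-BAFF-TGFb, where 19.3% of all genes passed, 9.99% higher and 9.33% lower). Aim2 rose from 80.6 ± 6.46 to 130 ± 14.0 CPM (log2 fold change 0.69, SE 0.11, adjusted p = 0.00375 by edgeR's quasi-likelihood test). Ifi213 fell from 51.7 ± 12.3 to 27.6 ± 8.28 CPM (log2 fold change -0.91, SE 0.24, adjusted p = 0.0391 by edgeR's quasi-likelihood test). Ifi203 fell from 191 ± 11.2 to 144 ± 21.5 CPM (log2 fold change -0.40, SE 0.12, adjusted p = 0.0499 by edgeR's quasi-likelihood test), a call that was lost with the mouse as a block (adjusted p = 0.0908), though the control cultures of 1 number did not all deviate together. When 1 control library was left out in turn, the calls of Ifi213 and Ifi203 were each lost in 4 of 6 cases, and that of Aim2 was lost in none. Ifi207, no member, fell from 2.596 ± 1.25 to 0.363 ± 0.212 CPM (log2 fold change -3.07, SE 0.56, adjusted p = 0.00615 by edgeR's quasi-likelihood test). Whether Ifi208 and its close copy Ifi213 differ in their change between cultures was not tested.

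In PDAP1 KO mice 1 of 8 neighbours passed, in the higher direction (11.5% of all genes passed, 5.57% higher and 5.89% lower with LPS-BAFF-TGFb). Aim2 rose from 91.0 ± 3.92 to 127 ± 7.91 CPM (log2 fold change 0.48, SE 0.10, adjusted p = 0.0115 by edgeR's quasi-likelihood test), a call lost without any 1 of 3 libraries, those of mouse 1 with LPS-IL-4 and of mice 1 and 3 with LPS-BAFF-TGFb (adjusted p = 0.0506 to 0.0834). With the mouse as a block 4 neighbours passed, where 26.4% of all genes did (12.8% higher and 13.5% lower): Aim2 (0.48, adjusted p = 0.000146 by edgeR's quasi-likelihood test), Ifi214 (-0.97, 9.84e-05), Ifi204 (-2.09, 0.00279) and Mndal (-0.36, 0.00470). By edgeR's quasi-likelihood test with this block, Ifi206 (-0.94, adjusted p = 0.0412) and Ifi207 (-3.09, 1.13e-05) passed as well. The other 4 neighbours had fitted differences below 0 that did not pass in either fit.

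**Figure D5:**
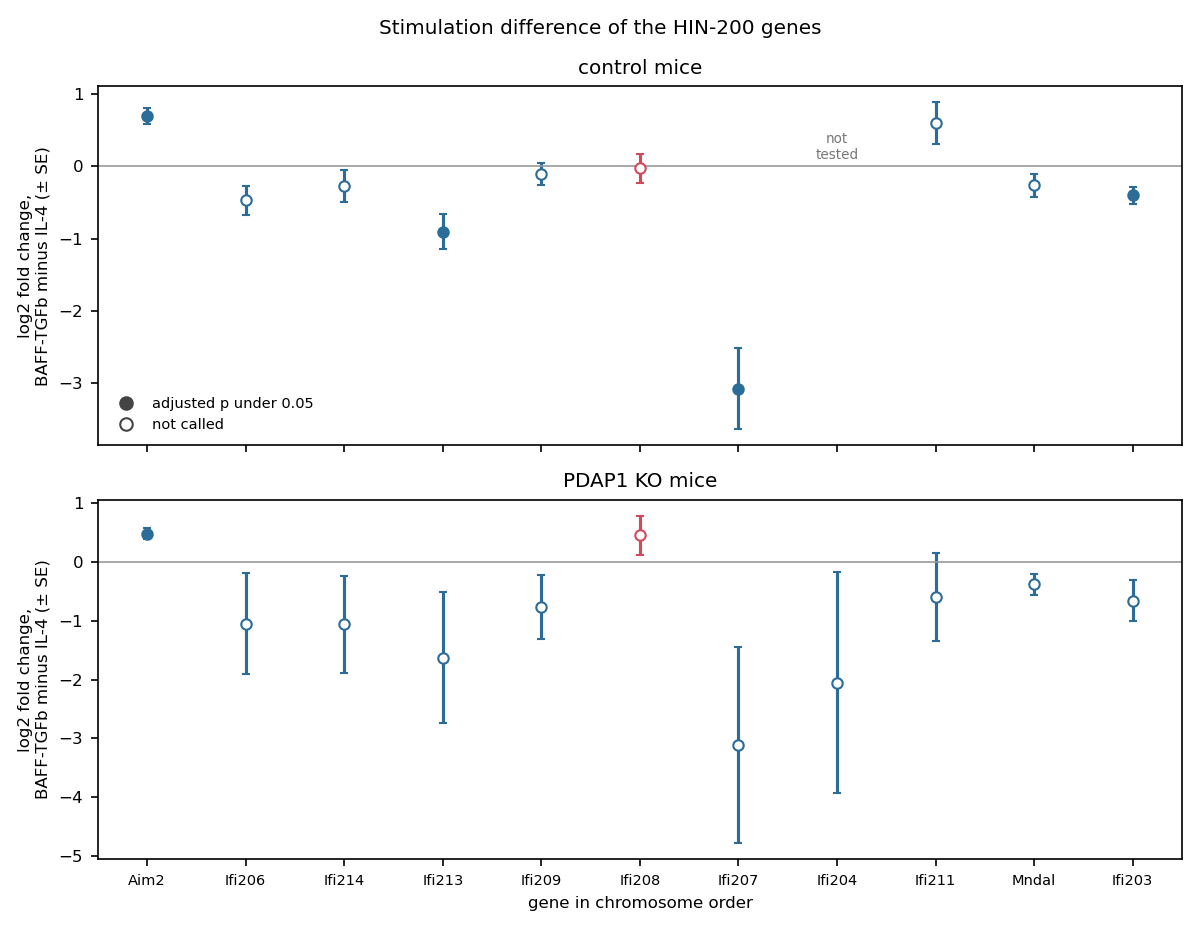
Log2 fold change between stimulations (LPS-BAFF-TGFb minus LPS-IL-4, ± SE) of the cluster's genes in control and in PDAP1 KO mice, without the mouse as a block; filled symbols passed at an adjusted p under 0.05. Aim2 was higher with LPS-BAFF-TGFb in both genotypes (0.69 and 0.48), and Ifi208 lay at -0.03 and 0.45.

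Most of the interferon-induced list was lower with LPS-BAFF-TGFb in controls. There 30 of the 39 list genes tested passed as lower with LPS-BAFF-TGFb (9.33% of all genes did), 36 had a fitted difference below 0, and the median log2 fold change was -1.33 against 0.03 over all genes. In PDAP1 KO mice 9 of 40 passed as lower (5.89% of all genes), with a median of -1.85, and with the mouse as a block 37 of 40 did (13.5% of all genes). With this block 31 of 39 passed as lower in controls (6.38% of all genes). For the lists that follow, the shares of all genes that passed as higher and lower were 9.99% and 9.33% in controls (6.99% and 6.38% with the block) and 5.57% and 5.89% in PDAP1 KO mice (12.8% and 13.5%). Of the 15 interferon receptors and regulatory factors, 4 were higher and 5 lower with LPS-BAFF-TGFb in controls, or 2 and 3 with the mouse as a block, and 2 were higher and 4 lower in PDAP1 KO mice, or 3 and 7 with the block. Of the genes for DNA sensing and the inflammasome, 2 were higher and 3 lower of 12 in controls in both fits, and 2 were higher and 2 lower of 13 in PDAP1 KO mice, or 2 and 7 with the block. Gbp2, a guanylate-binding protein, fell from 523 ± 33.5 to 73.6 ± 9.06 CPM in controls (log2 fold change -2.83, SE 0.12, adjusted p = 4.06e-06 by edgeR's quasi-likelihood test). Aim2, itself interferon-inducible in many cells, was higher instead.

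Whether the genotype difference depended on the stimulation was tested by the interaction of both factors, a term that edgeR's quasi-likelihood test called for none of 15794 genes (0.0%). An unadjusted p under 0.05 was found for 755 of them (4.78%), and DESeq2 called 6 (0.0189%), and in neither case was a neighbour among them. Of the 8 fitted terms 7 were below 0, from -1.20 (SE 0.82) for Ifi211 to -0.12 (SE 0.26) for Mndal, and that of Ifi204, which rests on control counts of 2, 0 and 0 with LPS-BAFF-TGFb, was 2.57 (SE 2.63). For Ifi208 the term was 0.47 (SE 0.37), given as a description.

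Levels of different genes were set side by side per length, as RPKM (CPM per kb of merged exons). The length was not corrected for stretches shared with other genes, so close ranks are uncertain. The unique share was 79.1% for Ifi208 and 27.2% for Ifi211. In LPS-IL-4 controls the order was Mndal (87.4 ± 2.08 RPKM), Ifi209 (52.4 ± 7.34), Ifi203 (28.5 ± 1.66), Aim2 (23.0 ± 1.85), Ifi213 (7.57 ± 1.79), Ifi214 (4.88 ± 1.16), Ifi208 (3.17 ± 0.748), Ifi211 (2.93 ± 1.02) and Ifi204 (0.224 ± 0.0664 RPKM). Ifi208 was seventh of the 9, and its range over mice overlapped those of Ifi214 and Ifi211. In the PDAP1 KO mice it was ninth with LPS-IL-4, at 0.545 ± 0.192 RPKM, where its range overlapped that of Ifi204 (1.69 ± 2.01 RPKM). With LPS-BAFF-TGFb it was eighth in both genotypes, at 3.11 ± 0.466 RPKM in controls and 0.755 ± 0.0984 RPKM in PDAP1 KO mice. Mndal and Ifi209 held the first 2 places in all 4 groups.

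The genes most like Ifi208 across the 12 libraries lay outside the cluster. Likeness was taken as Pearson's r of log2 CPM centred within each stimulation, over 12 libraries that share mice and among 15793 genes, with no p. The highest values were those of Traf4 (0.97), Slc31a1 (0.96), Rnpep (0.95), Ighg3 (0.95) and Pdxk (0.94), and the lowest those of Slc7a3 (-0.99), Pde4dip (-0.98) and Rhbdd1 (-0.98). The centring leaves the difference between genotypes in, and its size varied among these genes. With LPS-IL-4 the log2 fold change was -0.68 for Traf4 (adjusted p = 0.00892 by edgeR's quasi-likelihood test), -0.26 for Slc31a1 (0.117) and 1.65 for Slc7a3 (0.00470). With LPS-BAFF-TGFb Slc7a3 was called (adjusted p = 0.00238 by the same test) and Traf4 and Slc31a1 were not (0.138 and 0.545). The r of the 8 neighbours lay between -0.37 (Ifi204) and 0.10 (Ifi211), and that of Ifi213 was -0.14.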

How the data were processed

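RNA was sequenced from 12 primary spleen B cell cultures, and genotype and switched isotype were read from the labels, the mouse numbers from the sample names and the stimulations and time from the study's methods. Per the labels the authors trimmed reads with Trim Galore 0.6.1, mapped them to GRCm38 with STAR 2.6, and deposited raw counts per Ensembl gene made with HTSeq 0.9.1. A further table, deposited as normalized counts (DESeq2), holds a signal equal to the counts divided by 1 size factor per library (largest relative deviation 5.44e-15) and served only for that check. The annotation release and the strand setting of the counting are not given in the sources used here, so reads of overlapping genes may not be told apart.

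Of 55536 features, all named by GENCODE M21, 23840 had no count. Genotypes were compared within each stimulation and stimulations within each genotype by edgeR's quasi-likelihood test (edgeR 4.0.16, R 4.3.3, filterByExpr, TMM, Benjamini-Hochberg over all genes tested), and the genotype by stimulation term over 12 libraries. CPM used TMM factors over the 12 libraries (0.904 to 1.06), RPKM the merged exon length, and log2 levels a prior count of 2. The pipeline was tested on simulated data. No library was a copy of another in its group (chi-square per degree of freedom 7.07 to 87.1). Counts of 4579793 to 69500640 per library set the counting error, which for members with few counts (Ifi208 in PDAP1 KO mice, Ifi204) adds to the spread over 3 mice, and an exact permutation test of 3 against 3 cannot go below p = 0.1. Alternatives were DESeq2 1.42.0, its size factors, total counts as scaling, other filters on low counts, a fit of all 12 libraries, the mouse as a block and each library left out.

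Since 3 mice per genotype gave 2 cultures each, cultures with 1 number and genotype were taken as 1 mouse, and their sex by Xist and Ddx3y was the same. The mouse was taken to pair stimulations (correlation of deviations -0.18, 0.34 and -0.02 in controls, 0.58, 0.62 and 0.29 in PDAP1 KO mice). In controls some cultures of different numbers correlated more (0.37 for LPS-IL-4 mouse 3 with LPS-BAFF-TGFb mouse 1, 0.17 for 1 with 3), so the values of the controls do not show this pairing. Named genes are the members, the other annotated genes of the interval, Pdap1, the called genes of the lists (at most 4 a list), and the 5 genes most and 3 least correlated with Ifi208. Gbp2, Slamf9, Ifi202b, Ifi205 and Nnt fall outside this rule and were chosen after their values were seen. Some results are not reported here. The members and lists were chosen with earlier results of these data known. Promoter windows came from RefSeq, and shared 50-base stretches from the GENCODE M21 transcripts.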

Additional observations from a re-analysis of the deposited data

How the results depend on the processing

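With 3 mice per group, the calls of neighbours and of all genes moved with single libraries, and Ifi208 stayed lower in PDAP1 KO mice under each alternative run, at a log2 fold change of -2.84 to -2.31 with LPS-IL-4 and -2.16 to -1.92 with LPS-BAFF-TGFb. No value that had been called changed sign. The causes of the changes were not tested. For the genotypes with LPS-IL-4, where 741 genes were called, DESeq2 called 1229 and the fit with no filter on low counts 1694, and leaving out 1 library gave 69 (without control mouse 2) to 1759 (without PDAP1 KO mouse 1) genes and 0 to 5 neighbours. With LPS-BAFF-TGFb, where 65 were called, DESeq2 called 174 genes and 1 neighbour, no filter gave 257, all 12 libraries in one fit 133, and leaving out 1 library gave 19 (without control mouse 3) to 116 (without control mouse 1) genes and 0 neighbours. Between stimulations in controls (2874 genes, 3 neighbours), all 12 libraries in one fit called 1 neighbour, and leaving out 1 library gave 1608 (LPS-IL-4 control mouse 1) to 4858 (LPS-BAFF-TGFb control mouse 1) genes and 1 to 3 neighbours. In PDAP1 KO mice (1675 genes, 1 neighbour), the mouse as a block gave 3854 genes and 4 neighbours, and leaving out 1 library gave 908 (LPS-BAFF-TGFb PDAP1 KO mouse 1) to 2235 (LPS-IL-4 PDAP1 KO mouse 2) genes and 0 to 2 neighbours. The genotype by stimulation term called 6 genes by DESeq2 and 1 with no filter, none of them a neighbour.

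Of the fitted values of single genes, 626 stayed on the same side of the threshold, 15 gained and 18 lost a call over all alternatives. Between genotypes the mice share only a number (correlation of deviations -0.21 to 0.10), and that number as a block gave 641 genes in LPS-IL-4 and 48 in LPS-BAFF-TGFb cultures.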
